A study of Mus musculus with 4 samples.

Results

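Autophagy is the route by which a cell encloses part of its cytoplasm in a double membrane and delivers it to the lysosome. The genes described here are 37 protein-coding genes of that machinery, out of 21887 protein-coding genes in the annotation. They were listed by name for their known function. No measured value was a criterion, but the list was made with earlier results of these data known. Each was scored for a peak of Nynrin binding near the end of the gene. Binding was mapped by Flag chromatin immunoprecipitation with sequencing (ChIP-seq) in lineage-negative bone-marrow cells, the marrow fraction left after mature blood cells are removed, which holds the stem and progenitor cells. All libraries came from C57BL/6 mice aged 8 weeks with the genotype 3xFlag-Nynrin-Tg, a transgene for Nynrin carrying a Flag tag. The 4 libraries were 2 of Flag ChIP and 2 of input chromatin, and the peak lists of the 2 Flag libraries were analysed. The input libraries were not analysed here, and no control antibody or untagged sample was used. The sources used here do not give the promoter of the transgene or the number of mice behind a library. Peaks measure no expression, so the cell type could not be checked against marker genes.

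Autophagosome formation starts with the ULK kinase complex, which relays signals on nutrients and energy. A class III phosphatidylinositol 3-kinase complex then marks the growing membrane with the lipid PI3P. Lipid-transfer proteins and PI3P-binding proteins extend the membrane, and a conjugation system resembling ubiquitination attaches the Atg8 family proteins (LC3 and GABARAP) to it. Cargo receptors bind both the cargo and Atg8 proteins. In blood stem cells autophagy is known for clearing mitochondria and for keeping the cells quiescent.

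On the autosomes and sex chromosomes, 12702 peaks of replicate 1 and 25787 peaks of replicate 2 were used. Each peak has a summit, the base of highest signal, and a fold enrichment, the authors' ratio of signal to background at that summit. A gene was counted in a list when a summit lay within 1000 bp of either of its ends, and is termed called when this held in both lists. Since the fold enrichment was set within each library, its rank is also given as a percentile of all peaks in the same list, and sizes are not compared between lists. Read counts are not part of the lists and the depth is unknown. With 1 group of 2 libraries no comparison of conditions exists, and no test was made. Counts of members are set beside the same count over all protein-coding genes.

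Promoters of 7 members are shown first, chosen by the peaks in reach of their gene ends, by the lack of one, or by a motif match. They are RefSeq promoters on GRCm38.p6, the assembly behind mm10, and run from 250 bases before to 50 bases after an annotated start, 5′ to 3′ on the strand of the gene. Capitals mark matches, on either strand, to any of the 7 motifs named further on. Nbr1, Atg2a, Tax1bp1 and Gabarap ranked highest among called members with a promoter in the table. The rank of Gabarap comes from the peak at its 3′ end, and the peak over the promoter shown stood at percentiles 84.7 and 83.4. Gabarapl1 had a peak in replicate 2 alone, and Atg4c had none within reach of its gene ends. Atg3 was added after the motif matches were seen, as the called member with the CLEAR core. Where a gene has more than 1 listed start, the promoter nearest to the replicate 1 summit is shown, or for Atg4c the one nearest to a replicate 2 summit.
Nbr1, chr11:101552404-101552703, plus strand: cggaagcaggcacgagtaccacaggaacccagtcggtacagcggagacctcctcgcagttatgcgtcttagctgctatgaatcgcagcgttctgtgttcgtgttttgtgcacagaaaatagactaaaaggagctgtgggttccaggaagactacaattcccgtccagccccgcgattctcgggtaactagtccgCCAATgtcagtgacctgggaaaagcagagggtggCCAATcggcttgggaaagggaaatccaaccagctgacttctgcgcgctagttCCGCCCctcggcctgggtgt
Atg2a, chr19:6241418-6241717, plus strand: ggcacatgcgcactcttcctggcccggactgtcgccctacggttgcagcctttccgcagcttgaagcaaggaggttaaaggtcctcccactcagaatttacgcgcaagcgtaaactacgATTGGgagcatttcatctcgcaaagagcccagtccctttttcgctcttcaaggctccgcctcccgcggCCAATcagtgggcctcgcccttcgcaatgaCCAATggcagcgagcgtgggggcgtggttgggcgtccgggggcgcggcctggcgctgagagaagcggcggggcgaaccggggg
Tax1bp1, chr6:52713915-52714214, plus strand: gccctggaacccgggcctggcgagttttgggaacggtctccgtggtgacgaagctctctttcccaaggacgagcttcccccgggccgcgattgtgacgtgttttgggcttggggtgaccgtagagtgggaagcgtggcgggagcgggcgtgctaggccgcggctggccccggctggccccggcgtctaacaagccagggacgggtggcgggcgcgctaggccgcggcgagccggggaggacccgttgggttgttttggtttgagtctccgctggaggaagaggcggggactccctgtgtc
Gabarap, chr11:69991120-69991419, plus strand: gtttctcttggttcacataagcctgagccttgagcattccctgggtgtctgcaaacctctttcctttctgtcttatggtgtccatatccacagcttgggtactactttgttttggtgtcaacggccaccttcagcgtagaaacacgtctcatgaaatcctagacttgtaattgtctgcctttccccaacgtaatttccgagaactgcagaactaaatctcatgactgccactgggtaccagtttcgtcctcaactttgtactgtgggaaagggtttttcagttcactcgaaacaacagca
Gabarapl1, chr6:129532942-129533241, plus strand: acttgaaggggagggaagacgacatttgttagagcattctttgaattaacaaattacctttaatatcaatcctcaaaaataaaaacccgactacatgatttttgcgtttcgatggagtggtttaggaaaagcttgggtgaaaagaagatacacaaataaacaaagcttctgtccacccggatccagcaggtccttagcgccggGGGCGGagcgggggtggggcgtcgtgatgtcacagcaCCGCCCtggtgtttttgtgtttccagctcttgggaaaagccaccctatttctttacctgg
Atg4c, chr4:99193897-99194196, plus strand: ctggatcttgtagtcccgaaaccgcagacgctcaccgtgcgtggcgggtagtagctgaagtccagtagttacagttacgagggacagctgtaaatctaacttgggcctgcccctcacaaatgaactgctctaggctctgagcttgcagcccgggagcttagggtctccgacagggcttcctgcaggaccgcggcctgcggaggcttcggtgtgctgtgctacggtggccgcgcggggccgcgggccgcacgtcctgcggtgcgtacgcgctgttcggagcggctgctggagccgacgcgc
Atg3, chr16:45158579-45158878, plus strand: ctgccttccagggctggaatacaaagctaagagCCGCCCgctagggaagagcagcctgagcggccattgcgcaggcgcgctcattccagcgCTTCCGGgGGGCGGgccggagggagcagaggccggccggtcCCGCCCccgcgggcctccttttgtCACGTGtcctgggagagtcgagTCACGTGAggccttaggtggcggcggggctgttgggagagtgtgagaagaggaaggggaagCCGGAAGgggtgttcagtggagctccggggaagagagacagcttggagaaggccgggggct

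The promoters of Nbr1, Atg2a, Tax1bp1, Gabarap and Atg3 lay under a peak over their whole length, 300 of 300 bases, in both replicates. That of Atg4c lay wholly under a replicate 2 peak and under no replicate 1 peak. Of the Gabarapl1 promoter, 9 bases lay under the replicate 2 peak and none under a replicate 1 peak.

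Of the 37 autophagy genes, 31 were called (83.8%), against 31.9% of all protein-coding genes. Replicate 1 had a summit at 31 members (83.8%, against 32.6% of all genes) and replicate 2 at 33 (89.2%, against 45.5%). No member had a summit in replicate 1 alone, beside only 147 of the 21887 protein-coding genes. Gabarapl1 and Optn had one in replicate 2 alone, beside 2973 of all genes. Atg4c, Pik3c3, Pik3r4 and Wdr45 had none in either list, beside 11786 of all genes. With a −log10 q of at least 5 required in both lists, 25 members (67.6%) and 21.1% of all genes were called. The plot of shares by role shows each role above the share over all genes, but a role holds only 5 to 9 genes.

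**Figure D1:**
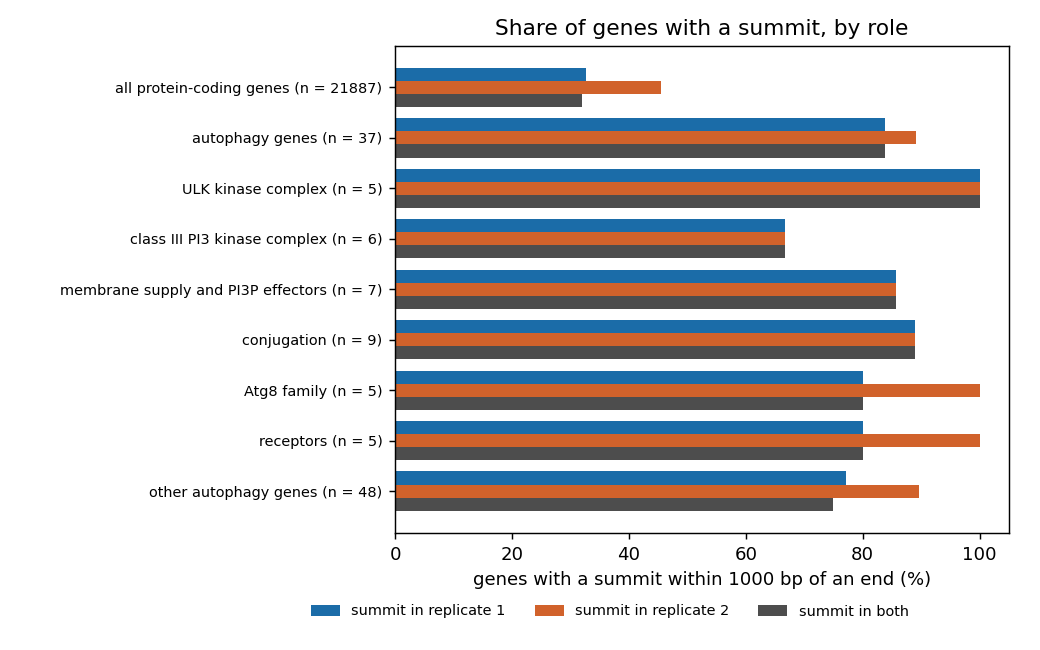
Percent of genes with a summit within 1000 bp of either gene end in replicate 1 (blue), replicate 2 (orange) and both (grey), for all protein-coding genes, the 37 autophagy genes, their 6 roles, and 48 further autophagy genes. The grey bar is 31.9% for all genes and runs from 66.7% to 100% over the roles.

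Among the 31 called members, the strongest peak in reach had a median fold enrichment of 5.14 (median percentile 80.0) in replicate 1, where the median over all 7128 genes with a summit was 4.29 (percentile 58.5). In replicate 2 the median over the 33 members with a summit was 8.36 (percentile 88.1), beside 6.91 (percentile 79.0) over all 9954 such genes. Peaks at members had a median width of 892 bp in replicate 1 and 1340 bp in replicate 2, beside 658 and 1092 bp over all genes with a summit. In the strongest peaks of 30 of the 31 called members the lists overlapped, the exception being Atg9a. Their summits lay a median of 91 bp apart, beside 106 bp over all called genes.

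**Figure D2:**
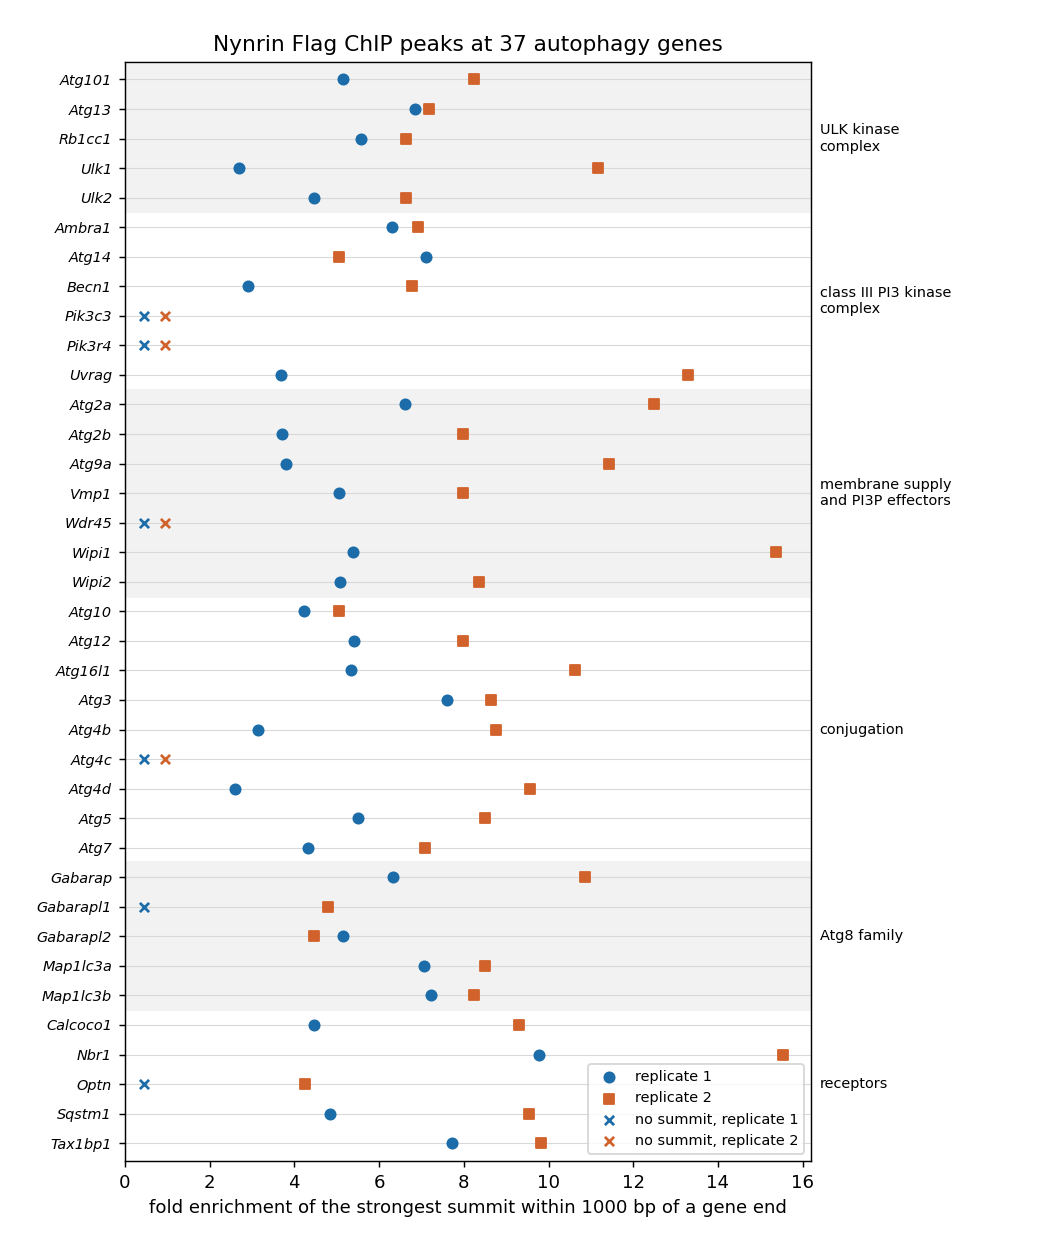
Fold enrichment (linear ratio, authors' value) of the strongest summit within 1000 bp of an end of each autophagy gene, grouped by role, in replicate 1 (blue circles) and replicate 2 (orange squares); crosses near the axis mark a list with no such summit and are not values. Replicate 1 spans 2.60 to 9.77, replicate 2 spans 4.25 to 15.5, and 6 genes carry at least 1 cross.

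All 5 genes of the ULK kinase complex were called. Ulk1, the kinase that starts autophagosome formation, had fold enrichments of 2.69 (replicate 1) and 11.2 (replicate 2). All pairs of values that follow are fold enrichments in this order. Its peak was among the weakest of replicate 1 (percentile 3.62) and among the strongest of replicate 2 (percentile 97.1), although the summits were only 91 bp apart. A further summit 1879 bp inside Ulk1 in replicate 1, and 1813 bp inside in replicate 2, had fold enrichments of 3.58 and 9.32. For Ulk2, the related kinase, the values were 4.47 and 6.64. Atg13, the regulatory subunit that links the kinase to its scaffold, had 6.84 and 7.18, with a peak that also reached the end of the neighbouring gene Harbi1. Rb1cc1, which encodes the scaffold FIP200, had 5.57 and 6.64, and Atg101, a stabilising partner of Atg13, had 5.14 and 8.24. Apart from Ulk1 in replicate 1, these peaks stood at or above percentile 63.0 in both lists.

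Of the 6 genes of the class III PI3-kinase complex and its regulators, 4 were called. The 2 without a summit in reach encode the catalytic subunit, Pik3c3 (VPS34), and its regulatory subunit, Pik3r4 (VPS15). The nearest summits to an end of Pik3c3 were inside the gene, 7563 bp away in replicate 1 and 7260 bp away in replicate 2, with weak fold enrichments (2.54 in replicate 1, percentile 1.87; percentile 44.7 in replicate 2), in peaks that overlapped. For Pik3r4 the nearest summits were 143230 and 121197 bp away. Becn1, the scaffold subunit beclin 1, had a weak peak in replicate 1 (2.91, percentile 6.77) and a stronger one in replicate 2 (6.77, percentile 77.98). Atg14, the subunit that directs the complex to autophagosome formation, had 7.10 (percentile 96.7) and 5.05 (percentile 57.9). Uvrag, the alternative subunit of the complex that acts in endosome traffic, had 3.68 and 13.3, the latter at percentile 99.3 of its list. Ambra1, a positive regulator of beclin 1, had 6.32 and 6.91. Only Nbr1 and Wipi1 ranked above Uvrag among members in replicate 2.

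Among 7 genes for membrane supply and PI3P effectors, 6 were called. Wipi1, a PI3P-binding protein, had 5.38 in replicate 1 and 15.4 in replicate 2 (percentile 99.9), with summits 320 and 284 bp upstream of its start. Its replicate 1 peak ran from 109611187 to 109612319 on chromosome 11. Wipi2, the relative that recruits the conjugation machinery, had 5.08 and 8.36, with another replicate 1 summit of 3.85 lying 818 bp downstream of the start. Wdr45, a further member of that protein family, lies on the X chromosome and had no summit nearer than 113753 bp in replicate 1 and 7353 bp in replicate 2. Atg2a, a lipid-transfer protein that feeds the growing membrane, had 6.62 and 12.5 at its 5′ end, at percentiles 94.8 and 98.8, and replicate 2 also had a summit of 4.52 at the 3′ end. Its paralogue Atg2b had 3.71 and 7.97 with a peak shared with Gskip. Vmp1, a scramblase of the endoplasmic reticulum, had 5.06 and 7.97 with a peak shared with Ptrh2.

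Atg9a encodes the scramblase carried by the vesicles that seed the autophagosome, and its strongest summits lay at different ends in the 2 lists. At its 3′ end both lists had a weak peak, with fold enrichments of 3.81 and 3.88, which also reached the end of Abcb6. At its 5′ end replicate 2 had a peak of 11.4 (percentile 97.5) with its summit 28 bp upstream of the start, shared with Ankzf1. Replicate 1 had no peak overlapping it. When 5′ ends alone were counted, Atg9a was no longer called.

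Of the 9 conjugation genes, 8 were called. Atg3, the E2-like enzyme that transfers Atg8 proteins to lipid, had 7.62 and 8.65 (percentiles 97.9 and 89.4) at a peak shared with Slc35a5. Atg16l1, which places the conjugation complex on the membrane, had 5.34 and 10.6, within reach of the lncRNA gene Gm33517. Atg5 had 5.51 and 8.50, within reach of the lncRNA gene Gm40637. Atg12, the ubiquitin-like protein that is joined to Atg5, had 5.41 and 7.97 at a peak shared with Ap3s1. Atg7, the E1-like enzyme of the system, had 4.32 and 7.09, with summits 1 and 17 bp from the lower end of its gene bounds. The only Atg7 start in the promoter table is further into the gene, 27970 bp from the replicate 1 summit and 27952 bp from the replicate 2 summit, and had no summit within 1000 bp in either list. Atg10, the E2-like enzyme for Atg12, had 4.22 and 5.05. Its summits lay 805 and 771 bp from the gene end, the former being the farthest among the members' strongest summits of replicate 1, but 67 and 33 bp from its annotated start.

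The Atg4 proteases, which process Atg8 proteins and release them from lipid, differed among themselves in these lists. Atg4b had 3.15 and 8.77 at a peak shared with Thap4, and Atg4d had 2.60 and 9.57. Both were weak in replicate 1, at percentiles 14.1 and 2.31, and both stood at or above percentile 90 in replicate 2. Atg4c was not called. Its 2 annotated starts lie well inside the gene bounds. Replicate 2 had a peak of 6.23 there (percentile 73.3, chromosome 4, 99193795 to 99194354), with the summit 74 bp from one start and 4914 bp from the gene end. Replicate 1 had no peak there, so Atg4c was not called by start sites either.

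Of the 5 Atg8 family genes, 4 were called. Map1lc3a and Map1lc3b, which encode LC3A and LC3B, had 7.06 and 8.50, and 7.23 and 8.24. Each stood at or above percentile 87.4 in both lists. The Map1lc3b summits lay 20 and 14 bp inside the start, only 6 bp apart, the shortest gap of any called member. Gabarap had peaks at both ends in both lists. At the 5′ end the fold enrichments were 5.47 and 7.495, in a peak shared with Ctdnep1, and at the 3′ end 6.32 and 10.9, in a peak shared with Phf23. Gabarapl2 had 5.14 and 4.46, at percentiles 80.0 and 44.4. Gabarapl1 had a peak of 4.79 in replicate 2, 221 bp inside its start and within reach of a lncRNA gene, and its nearest summit in replicate 1 was 17918 bp away.

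Of the 5 cargo receptor genes, 4 were called. Nbr1, a receptor for ubiquitinated protein aggregates, had the highest-ranking gene-end peak of all members, with 9.77 in replicate 1 and 15.5 in replicate 2 (percentiles 99.8 and 99.9). The replicate 1 peak ran from 101551785 to 101553674 on chromosome 11, and its summit was also within reach of the end of Brca1. Such a peak cannot be assigned to either gene. Tax1bp1, a receptor that binds ubiquitin and LC3, had 7.71 and 9.83 in peaks 1982 and 2614 bp wide, the widest of all members in each list. The gene has 2 annotated starts, and the replicate 1 summit lay 83 bp upstream of the second while the replicate 2 summit lay 52 bp upstream of the first. Sqstm1, which encodes the receptor p62, had 4.83 and 9.54. Calcoco1, a receptor for the endoplasmic reticulum and Golgi, had 4.47 and 9.30. Optn, which encodes optineurin, a receptor for mitochondria and bacteria, had a peak in replicate 2 alone, of 4.25 at percentile 42.8, with its summit 31 bp from its annotated start. Its nearest replicate 1 summit was 7646 bp from a gene end and 51242 bp from that start.

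The percentiles come from lists of different length, and gene-end peaks in general stood higher in replicate 2. A higher percentile there was found for 22 of the 31 called members (71.0%) and for 79.5% of all called genes, so the direction is no feature of these members. The members' median gap between lists was 13.8 percentile points, beside 25.0 points over all 6981 called genes. Ulk1, Atg4d, Atg4b, Becn1, Uvrag and Atg9a differed by more than 50 points (6 of 31, or 19.4%, beside 25.6% of all called genes). All 6 stood higher in replicate 2, as did 98.2% of the 1787 called genes with such a gap. Across the called members, the fold enrichments of the lists had a Spearman's rho of 0.03, beside 0.34 over all called genes. Genes are not independent replicates, and no p is given. At or above percentile 75 in both lists were 17 members (54.8% of those called), beside 28.9% of all called genes. At or above percentile 90 in both were 4 members, Nbr1, Atg2a, Tax1bp1 and Gabarap (12.9%, near the 9.31% of all called genes).

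**Figure D3:**
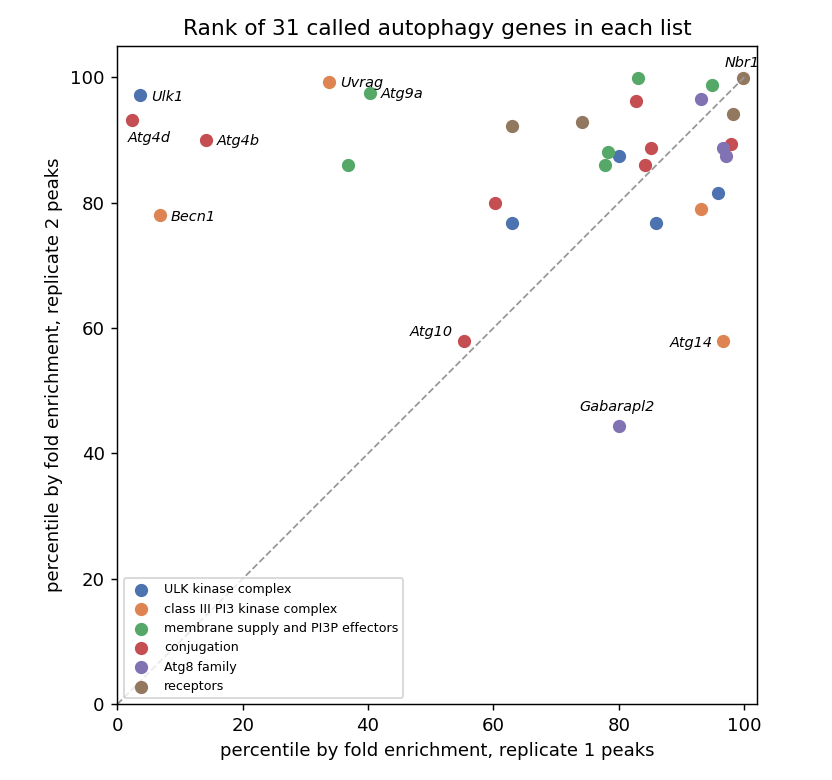
Percentile by fold enrichment of the strongest peak of each of 31 called autophagy genes among all peaks of replicate 1 (horizontal) and replicate 2 (vertical), coloured by role; the dashed line marks equal rank. Ulk1, Atg4d, Becn1 and Atg4b lie at percentile 2.31 to 14.1 in replicate 1 and all but Becn1 lie above percentile 90 in replicate 2.

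Where the peaks lay relative to transcription starts was examined with the promoter table, which gave a strand and a start for 31 members. Atg12, Atg16l1, Becn1, Pik3c3, Rb1cc1 and Map1lc3a were not in the table. A summit at the 5′ end in both lists was found for 25 of the 31 (80.6%), against 31.9% of the 17492 protein-coding genes with a strand. At the 3′ end it was found for 2, Atg9a and Gabarap (6.45%, against 2.16%). Within 1000 bp of an annotated start, 24 members had a summit in both lists (77.4%, against 34.5%). The strongest summits of members lay a median of 130 bp from the nearest start in replicate 1 (26 members) and 91.5 bp in replicate 2 (28 members), beside 129 bp in each list over all genes with such a summit. Of the 52 summits within 1000 bp of both a gene end and an annotated start, 28 were upstream and 24 downstream of the start. The replicate 2 summit of Atg4c, 74 bp from a start but 4914 bp from the gene end, was not among them.

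**Figure D4:**
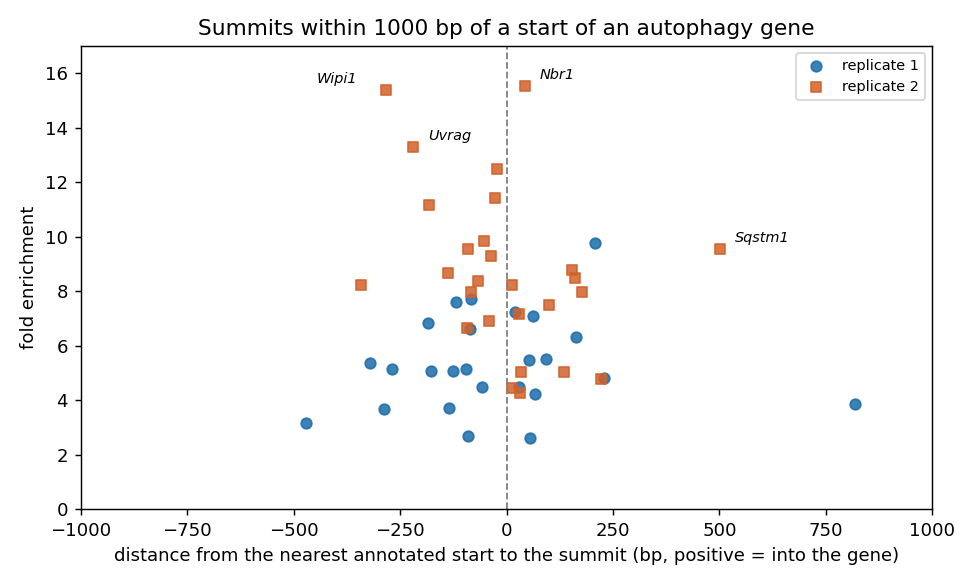
Fold enrichment (linear ratio) against the signed distance in bp from the nearest annotated start, for summits within 1000 bp of both an end and a start of an autophagy gene (replicate 1 blue circles, replicate 2 orange squares; positive values lie inside the transcribed side). The replicate 2 summit of Atg4c, near a start but not near a gene end, is not drawn. The summits run from 471 bp upstream (Atg4b, replicate 1) to 818 bp downstream (Wipi2, replicate 1), and the highest point is Nbr1 in replicate 2 at 15.5.

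Peaks also lay deep inside some members. In 8 members (Ulk1, Atg4c, Atg7, Atg9a, Pik3c3, Nbr1, Tax1bp1 and Vmp1; 21.6%, against 10.3% of all genes) replicate 1 had a summit more than 1000 bp from both ends whose peak overlapped a replicate 2 peak. The members were longer than other genes, with a median length of 34702 bp beside 17169 bp over all protein-coding genes, and the part of length in this share was not tested. Vmp1 stood out with 6 such summits in replicate 1 and 7 in replicate 2, whether or not they overlapped. Its strongest replicate 1 peak was inside the gene, from 86586141 to 86587761 on chromosome 11, with a fold enrichment of 12.8 (percentile 99.97). It exceeded the 5.06 at the Vmp1 start and the 9.77 of Nbr1. The overlapping replicate 2 peak had 7.25, below the 7.97 at the start. Another inner peak, from 86613801 to 86614778, had 7.39 in replicate 1 and 6.28 in the replicate 2 peak that overlapped it. Within 1000 bp of the 3′ end of Vmp1, replicate 2 alone had a summit, a weak one (4.21) within reach of the microRNA gene Mir21a. Replicate 1 had a summit of 3.86 lying 1138 bp inside that end, in a peak that overlapped no replicate 2 peak.

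Several members shared a peak with a neighbouring coding gene. In each list 9 members' strongest summits were also within 1000 bp of another protein-coding gene's end, which was 29.0% of 31 in replicate 1 and 27.3% of 33 in replicate 2, beside 31.97% and 27.8% over all genes with a summit. In both lists these were Atg2b, Atg3, Atg4b, Atg9a, Atg12, Atg13, Gabarap, Nbr1 and Vmp1. With such summits left out, 22 members (59.5%) and 21.7% of all genes were called.

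Promoter sequence was then compared with that of all 21263 promoters of protein-coding genes in the table. The 36 promoters of 31 members had a median GC content of 60.2%, beside 56.3%, and a median ratio of observed to expected CpG of 0.795, beside 0.567. The 30 promoters of called members had 61.7% and 0.803, close to the 61.7% and 0.817 of all called genes. They include that of Atg7 and a Vmp1 promoter with a GC content of 42.3%, neither with a summit within 1000 bp of its start in either list. That of Atg9a had one in replicate 2 alone. The 6 promoters of members not called had 49.3% and 0.658, beside 53.3% and 0.358 for all genes not called. Among the printed promoters, Gabarap had the lowest GC content (45.7%, with 7 CpG dinucleotides) and still lay under peaks in both lists. Tax1bp1 had the highest, at 68.7% with 31 CpG dinucleotides.

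The 7 motifs searched on both strands were the ETS core CCGGAAG, the NRF1 motif TGCGCATGC, the Sp/KLF box GGGCGG, the CCAAT box CCAAT, the E-box CACGTG, the CLEAR core TCACGTGA and the YY1 core AAGATGGC. The CLEAR core contains the E-box and is the site known for the lysosome and autophagy regulator TFEB. A match is a description of these letters only. The Sp/KLF box was found in 20 of 36 member promoters (55.6%), beside 46.2% of all promoters and 66.3% of those of called genes. The CCAAT box was in 9 (25.0%), beside 38.2% of all and 39.5% of called genes' promoters, with 3 matches in Atg2a, at -131, -63 and -33 from the start. The ETS core was in 4 (11.1%), beside 11.6% of all and 22.1% of called genes' promoters. The NRF1 motif was in 3, those of Atg10, Tax1bp1 and Wipi2 (8.33%, beside 1.98% of all and 3.84% of called genes' promoters). The Tax1bp1 promoter with that match belongs to the start nearest the replicate 2 summit and is not the one shown. The E-box was in 4 (Atg3, Atg5, Atg7 and Atg14; 11.1%, beside 7.84% of all and 11.06% of called genes' promoters). The Atg7 start had no summit within 1000 bp in either list. The CLEAR core was in 1, that of Atg3, at -72 from the start, or 2.78%, beside 1.23% of all and 2.33% of called genes' promoters. The YY1 core was in 2, those of Atg4b and Atg4d (5.56%, beside 3.05% of all and 5.70% of called genes' promoters). The 36 member promoters include those of members not called. In the 30 promoters of called members alone, the Sp/KLF box was in 60%, the CCAAT box in 23.3% and the ETS core in 13.3%. The NRF1 motif was in 10%, the E-box in 13.3%, the CLEAR core in 3.33% and the YY1 core in 6.67% of them.

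For the rest of the pathway, 48 further autophagy genes were scored by the same rule. Of these, 36 were called (75%, against 31.9% of all genes). A summit in replicate 2 alone was found for 7, beside 2973 of all 21887 genes. In replicate 1 alone it was found for 1, beside 147, and 4 had none in either list, beside 11786. Regulators of initiation and membrane growth were called in 11 of 13 cases. The highest-ranking were Wdr41 (5.70 and 9.30), Tmem41b (4.93 and 8.40), Zfyve1 (4.49 and 5.87) and Rubcn (4.29 and 7.97, with Fyttd1), while Rubcnl (5.21) and Ei24 (4.25) had a summit in replicate 2 alone. Genes for fusion of autophagosomes with lysosomes were called in 12 of 14 cases, led by Epg5 (7.44 and 9.03), Vps18 (5.41 and 7.82), Vps11 (5.08 and 8.50) and Vamp8 (4.13 and 4.86). Vps39 (4.52) and Vps41 (4.78) had a summit in replicate 2 alone.

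Of 12 genes for cargo and organelle receptors, 9 were called (75%, against 31.9% of all genes). They were led by the mitophagy receptor gene Bnip3l (5.94 and 8.58), Sec62 (6.55 and 6.91), Bnip3 (5.03 and 9.30) and Tollip (4.69 and 8.24). Tex264 (5.85) had a summit in replicate 2 alone, and Fundc1 and Wdfy3 had none. Of 4 transcription factor genes, 2 were called (50%), Tfeb (6.53 and 10.4, percentiles 94.2 and 95.6) and Mitf (2.77 and 5.31). Foxo3 had a summit in replicate 1 alone (3.20) and Tfe3 in replicate 2 alone (3.79). Of 5 close relatives of the members, 2 were called (40%, near the 31.9% of all genes), Wdr45b (6.03 and 9.30) and Atg16l2 (3.31 and 7.71). Atg9b (5.85, with Nos3) had a summit in replicate 2 alone, and Atg4a and Becn2 had none. Wdr45b, the paralogue of Wdr45, thus had a summit in both lists where Wdr45 had none.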

How the data were processed

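Peak lists of 2 Flag ChIP-seq libraries were used. Per the labels' protocols, cells were fixed with formaldehyde and ChIP and input libraries were made alike. The submitters' processing notes name the build mm10 and, among other tools, the aligner Bowtie2, the peak caller MACS2 and the annotation package ChIPseeker. The sources used here do not give versions, the cutoff or whether the input served as control. Peaks were called for each library alone, per the peak names in the deposited files. The authors' fold enrichment at a summit is a linear ratio. Their −log10 p and −log10 q come from the peak caller, and the deposited score, which follows the −log10 q, was not used.

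Only peaks on the autosomes, X and Y were used. Gene bounds were those of GRCm38.p6, and strands and starts came from the RefSeq promoter table of that assembly, which 31 of 37 members matched. The strongest summit of a gene is that with the highest fold enrichment, and a gene's rank for ordering is the lower of its percentiles in the 2 lists. All members are named, and of the further genes up to 4 of each group with the highest rank, those with a summit in 1 list, and some chosen after their values were seen. The members and lists were chosen with earlier results of these data known. The labels do not tie each replicate to its own animals, so the spread between them may be technical. Assignment of summits was tested on simulated data. Calculations used Python 3.11.15, numpy 2.4.6 and pandas 2.3.3.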

Additional observations from a re-analysis of the deposited data

How the results depend on the processing

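The number of called members (31 of 37) was recomputed under 12 alternatives, 2 of which (5′ ends only, and annotated starts) were chosen after seeing the data. It was 31 with a 3000 bp window, beside 36.8% of all genes. It was also 31 with lists of equal length (beside 30.1%) and with overlapping peaks required at the same end (beside 31.6%). With a 500 bp window it was 28, beside 27.9% of all genes, and Atg10, Nbr1 and Sqstm1 were lost. From 1 list alone it ranged from 31 (without replicate 2, beside 32.6% of all genes) to 33 (without replicate 1, which added Gabarapl1 and Optn, beside 45.5%). With a fold enrichment of at least 5 it fell to 18, beside 9.52% of all genes, with 19 members having a summit in replicate 1 and 9 of the further autophagy genes called. With an overlap of 50% of both peaks it was 19, beside 18% of all genes, with 22 further genes called. With a −log10 q of at least 5 the share of all genes was 21.1%, and Ulk1, Becn1, Atg2b, Atg4b, Atg4d and Atg9a were lost. Without olfactory and vomeronasal receptor genes the share of all genes was 34.2%. Atg2a, Atg5, Atg14, Atg16l1, Rb1cc1, Map1lc3a, Tax1bp1, Wipi1 and Ambra1 (9 members) were called under each alternative that could score them. No paired analysis was possible because no peak list of the input libraries was used. Depth is unknown, so a missing peak in 1 list does not show absence of binding.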
